A study of Mus musculus with 9 samples.

Results

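The gp130, STAT3 and SOCS3 pathway was followed through 10 genes: the ligand gene Lif, the receptor genes Lifr, Osmr and Il6st, the kinase genes Jak1 and Jak2, the transcription factor genes Stat3, Cebpd and Cebpb, and the inhibitor gene Socs3. They were chosen by symbol, from their role in the pathway. All 10 were found among the 16367 genes of the deposited table of sorted cells and among the 17035 genes of the table of primary cultures. The study sequenced RNA of mouse cells labelled as Müller glia, the radial glia that span the retina, and asked how they respond to raised pressure in the eye. All groups were labelled WT, with 3 libraries each. Eyes with ocular hypertension (OHT) had each received silicone oil in the front chamber, 1.2 µL of it, on both sides of the animal, and sham animals had received the corneal cut with no oil. Cells of both groups were dissociated with papain from pools of 4 retinas, cleared of dead cells and captured on magnetic beads through the glutamate transporter GLAST, which astrocytes carry too. The strain and age of these animals and the time after injection are not given in the labels. The primary cultures were grown in serum from retinas of C57BL/6J pups of postnatal day 8 to 10, passaged when confluent and left untreated. No label says that libraries of 1 group came from separate sets of animals, so p-values measure only the spread between these libraries.

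Cytokines of the interleukin-6 family, among them LIF, CNTF and oncostatin M, bind receptor pairs that share gp130, the protein of Il6st. LIF joins gp130 to the LIF receptor (Lifr), and oncostatin M joins it to its own receptor (Osmr). The bound pair activates the kinases JAK1 and JAK2, which phosphorylate STAT3. STAT3 then enters the nucleus and switches on genes that include Socs3, whose protein binds gp130 and the kinases and shuts the signal down. C/EBPβ and C/EBPδ, the proteins of Cebpb and Cebpd, are transcription factors that act with STAT3 in the acute-phase response. In the injured retina, Müller glia are known to make LIF, to activate STAT3 and to raise the intermediate filament protein GFAP.

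The promoters of Socs3, Cebpb and Osmr are shown because the results turn on these genes, whose values differed widely between libraries or between sorted and cultured cells. Each run is the 250 bases before the transcription start in RefSeq's promoter table (GRCm38.p6), 5′ to 3′ on the gene's strand. It is in lower case, with a match to the STAT motif TTCNNNGAA in capitals. The Socs3 stretch is chr11:117969367-117969616 on the minus strand, that of Cebpb is chr2:167688665-167688914 on the plus strand, and that of Osmr is chr15:6874314-6874563 on the minus strand.
Socs3: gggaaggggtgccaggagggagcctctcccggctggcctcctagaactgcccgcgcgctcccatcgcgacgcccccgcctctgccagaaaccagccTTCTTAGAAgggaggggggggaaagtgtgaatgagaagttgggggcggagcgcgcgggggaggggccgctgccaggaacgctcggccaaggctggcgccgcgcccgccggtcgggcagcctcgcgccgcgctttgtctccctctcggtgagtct
Cebpb: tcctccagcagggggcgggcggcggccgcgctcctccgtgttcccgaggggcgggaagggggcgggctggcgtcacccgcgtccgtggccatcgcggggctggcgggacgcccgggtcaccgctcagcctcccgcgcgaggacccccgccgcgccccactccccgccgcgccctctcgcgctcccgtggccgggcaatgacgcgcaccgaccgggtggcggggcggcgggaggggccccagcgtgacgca
Osmr: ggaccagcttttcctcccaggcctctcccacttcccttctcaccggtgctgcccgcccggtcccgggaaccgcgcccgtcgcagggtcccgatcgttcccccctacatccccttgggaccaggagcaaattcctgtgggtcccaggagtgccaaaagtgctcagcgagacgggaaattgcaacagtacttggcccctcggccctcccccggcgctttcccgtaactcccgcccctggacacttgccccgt
The table held windows for 9 of the 10 members, with 2 for Lifr and none matched for Cebpd. Of the 9, Socs3 was the only gene whose window held the STAT motif, as TTCTTAGAA starting 154 bases before the start site, while 7.02% of 32851 mouse windows of the same length held that motif. No member window held the C/EBP motif, searched as TTGCNNAA or TTNNGCAA on both strands and present in 9.56% of all windows. The Cebpb window was 81.6% G and C and held 41 CG pairs, the Socs3 window was 71.6% G and C with 26, and the Osmr window was 66.0% G and C with 18, where the median mouse window held 6 CG pairs. A match describes letters in the window, and its absence says only that these letters do not occur there.

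The values are normalised counts: reads per gene divided by 1 factor per library, on a scale of their own in each table. Depth was 37.8 to 44.5 M reads (M, 1000000) in the sham libraries, 47.1 to 53.6 M in the OHT libraries and 66.3 to 76.7 M in the cultures. In the sorted libraries, 10 Müller glia marker genes, none of them at 0, summed to 0.368% to 0.885% of reads in sham and 0.188% to 0.415% in OHT. The 12 microglia and macrophage markers, also none at 0, summed to 2.43% to 3.76% and 2.85% to 3.88%, and the 10 rod markers to 0.253% to 2.38% and 0.0895% to 0.313%. RNA with immune-cell markers was thus present in each sorted library, and in bulk RNA fewer cells of a type cannot be told apart from less RNA per cell. Across all genes the median SD of log2 values was 0.44 in sham and 0.90 in OHT.

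None of the 10 members differed between OHT and sham by limma at a Benjamini-Hochberg adjusted p of 0.05, a threshold that 0% of the 14403 genes tested passed. Their adjusted p ranged from 0.574 to 0.957, against a smallest adjusted p of 0.332 over all genes. At an unadjusted limma p under 0.05 the count was 0 of 10 members, beside 11.7% of all genes. edgeR called 0 members on the recovered reads (smallest adjusted p 0.593), and DESeq2 called 0 (smallest adjusted p 0.654) where it called 1.8% of all genes with an adjusted p. The fitted log2 difference, OHT minus sham, was below 0 for 8 members and above 0 for Lif and Jak2, with a median of -0.25 beside -0.12 for all genes tested. The split was 3 above and 7 below 0 after quantile normalization, and 8 above and 2 below after a correction for transcript length and G and C content, an alternative added once the values were known. That correction also centred each library, setting its mean deviation from the gene means to 0. The median of all genes moved from -0.12 to 0.17, the latter over the 13849 genes with a transcript. All 10 members passed the filter on low values.

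**Figure D1:**
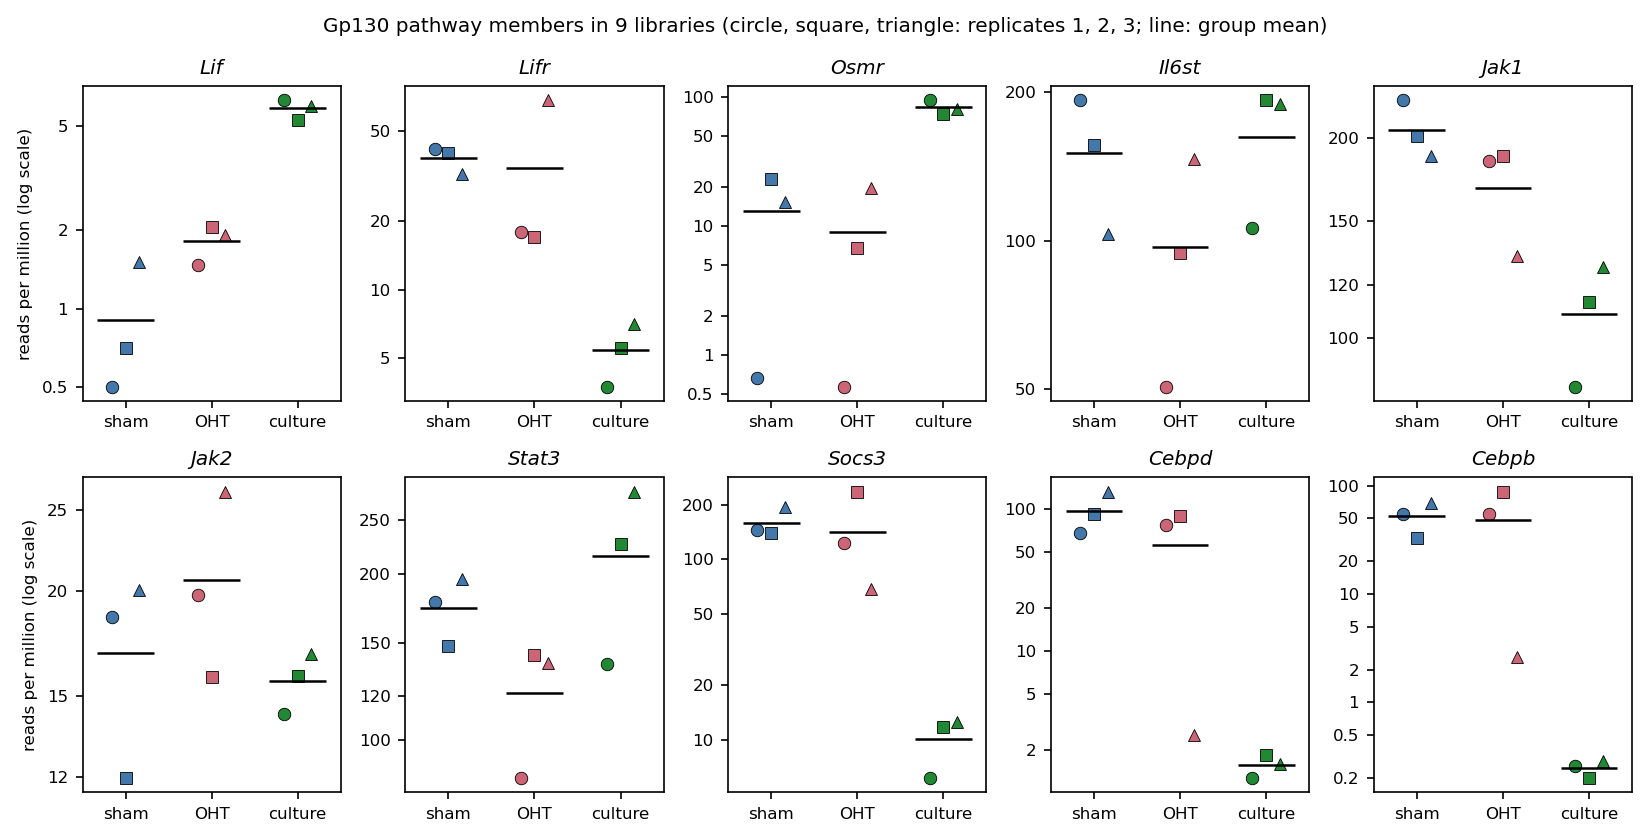
Reads per 1000000 reads of the library (log axis) for each of the 10 members in the 3 sham, 3 OHT and 3 primary culture libraries; circles, squares and triangles are replicates 1, 2 and 3, and lines are group means. Cebpd and Cebpb fell far below the other sorted libraries in OHT replicate 3, Osmr was lowest in sham replicate 1 and OHT replicate 1, and Socs3, Lifr, Jak1, Cebpd and Cebpb lay lower in every culture than in any sorted library.

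Lif, the pathway's injury-induced ligand, was the least abundant member in sorted cells. Its normalised counts were 19.6, 27.7 and 64.1 in sham replicates 1, 2 and 3, and 96.7, 90.5 and 72.1 in OHT replicates 1, 2 and 3. These values rest on 19 to 67 reads per sham library and 70 to 110 per OHT library. Every OHT value lay above every sham value, which on this scale was the case for 1 of the 10 members and for 9.26% of all genes. The log2 difference was 1.36 (SE 1.02, 95% interval -0.88 to 3.61, limma adjusted p = 0.589), and an exact two-sided permutation test gave p = 0.1, the smallest that 3 against 3 allows. As reads per 1000000 reads of the library (ppm) the groups overlapped slightly, at 1.51 in the highest sham library and 1.47 in the lowest OHT library. Lif stayed above 0 under all alternatives that gave a value, at 1.01 or more.

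Among the receptor genes, the sham libraries spread 1.71-fold in Il6st and 1.18-fold in Lifr but 35.2-fold in Osmr. Il6st, the shared chain, had normalised counts of 7516, 6154 and 4390 in sham and 3333, 4164 and 5531 in OHT. The 2 highest values were in sham, but OHT replicate 3 stood above sham replicate 3 and the groups overlapped. The log2 difference was -0.47 (SE 0.35, 95% interval -1.24 to 0.30, limma adjusted p = 0.588). After the correction for transcript length and G and C content it was -0.0198, close to 0.

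Lifr, the partner chain for LIF, stood at 1626, 1578 and 1381 in sham, values that lay close together. In OHT it was 1180, 757 and 2582, a ratio of 3.41, so that 2 OHT libraries lay below every sham library and 1 above. The log2 difference was -0.21 (SE 0.48, 95% interval -1.25 to 0.84, limma adjusted p = 0.866). It was -0.69 without OHT replicate 3 and 0.20 without OHT replicate 2.

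Osmr, the partner chain for oncostatin M, stood at 25.8, 909 and 658 normalised counts in sham and at 37.3, 297 and 738 in OHT. The spread was 35.2-fold within sham and 19.8-fold within OHT, and both groups held 1 library with a very low value, replicate 1 in each case, from 25 and 27 reads. The log2 difference of -0.31 had an SE of 1.38 and a 95% interval from -3.33 to 2.71 (limma adjusted p = 0.931). Leaving out 1 library moved it between -1.93, without sham replicate 1, and 0.89, without OHT replicate 1. The labels do not say whether the replicate numbers link libraries of the 2 groups.

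A rule set after the Osmr values were seen asked which genes averaging 100 or more were 5-fold or more lower in both of these libraries than in each of the other 4. It found 19 genes, Osmr among them, or 0.165% of 11532. Another was A2m, one of the genes listed as STAT3 targets and named here after its values were seen. It was at 0 and 67.7 in sham replicate 1 and OHT replicate 1 and between 398 and 2098 in the other libraries. By the likeness of their profile over the 6 sorted libraries, the genes nearest to Osmr were Dnah7b, Pde9a, Zfhx4, Echdc2 and Zfp449. Their root mean square differences from it were 0.46 to 0.70 on the log2 scale, where the profile of Osmr itself had a root mean square of 2.06.

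The 4 astrocyte markers, Gfap among them, summed to 0.000420% of reads in sham replicate 1 and 0.00542% in OHT replicate 1. They summed to 0.0713% and 0.129% in the other sham libraries and to 0.000952% and 0.00916% in OHT replicates 2 and 3. Pax2 and Pdgfra, which mark astrocytes and their precursors, were both at 0 in sham replicate 1, where Osmr was low, and in OHT replicate 2, where Osmr was at 297. In OHT replicate 1, where Osmr was low, Pax2 was at 0 and Pdgfra at 420. Gfap stood at 156, 22395 and 47682 in sham and 3091, 370 and 3142 in OHT, so the order of the libraries differed between Osmr and Gfap in both groups. Sham replicate 2 had more Osmr and less Gfap than sham replicate 3, and OHT replicate 1 had less Osmr and more Gfap than OHT replicate 2. The part of astrocyte RNA in the spread of Osmr was not tested.

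Jak1 was the most even member among the sham libraries. Its normalised counts were 8889, 7920 and 7976 in sham and 12122, 8280 and 5011 in OHT, with the highest and the lowest of the 6 values both in OHT. The log2 difference was -0.05 (SE 0.37, 95% interval -0.85 to 0.75, limma adjusted p = 0.957). Jak2 stood at 727, 470 and 854 in sham and 1303, 696 and 992 in OHT. OHT replicates 1 and 3 lay above every sham library, and replicate 2 within their range. The log2 difference of 0.54 (SE 0.48, 95% interval -0.51 to 1.59, limma adjusted p = 0.641) was above 0 in each alternative run.

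Stat3, the transcription factor at the centre of the pathway, had the smallest spread of the members in OHT, 1.21-fold. It stood at 6948, 5814 and 8314 normalised counts in sham and 5624, 6281 and 5201 in OHT. OHT replicate 2 lay above sham replicate 2, and the other 2 OHT libraries lay below all of sham. The log2 difference was -0.29 (SE 0.31, 95% interval -0.97 to 0.39, limma adjusted p = 0.702). In ppm, the range was 148 to 195 in sham and 85.5 to 142 in OHT, with no overlap. On that scale 1 of the 10 members lay lower in every OHT library than in any sham library, beside 11.4% of all genes, and 0 lay higher, beside 5.44%. On the deposited scale the count of members that lay lower was 0, beside 9.18% of all genes.

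Socs3, the feedback inhibitor, had normalised counts of 5706, 5497 and 8287 in sham and 8075, 10473 and 2593 in OHT. OHT replicate 2 was the highest of the 6 libraries, OHT replicate 1 lay within the sham range, and OHT replicate 3 was 2.12-fold below the lowest of the others. The log2 difference was -0.08 (SE 0.48, 95% interval -1.14 to 0.98, limma adjusted p = 0.950). Without OHT replicate 3 it was 0.53, with a limma adjusted p of 0.452. The 5 genes with the profile most like that of Socs3 over the 6 sorted libraries were Ncdn, Adssl1, Gnb2, Nek6 and Arhgdia. Their root mean square difference from Socs3 was 0.12 to 0.15, beside 0.65 for the Socs3 profile itself. Like Socs3, each was lowest in OHT replicate 3, which follows from their choice by profile.

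The 2 C/EBP genes were high in 5 sorted libraries and low in 1. Cebpd stood at 2657, 3652 and 5661 normalised counts in sham and at 5064, 3968 and 97.0 in OHT. Cebpb stood at 2161, 1290 and 2971 in sham and at 3605, 3884 and 97.8 in OHT. In OHT replicate 3, Cebpd was therefore 27.4-fold and Cebpb 13.2-fold below the lowest of the other 5 libraries, while the other 2 OHT libraries lay within or above the sham range.

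With all 6 libraries the log2 difference was -1.60 for Cebpd (SE 1.16, 95% interval -4.14 to 0.94, limma adjusted p = 0.574) and -0.86 for Cebpb (SE 1.12, 95% interval -3.31 to 1.59, limma adjusted p = 0.749). Without OHT replicate 3 both signs turned, to 0.24 for Cebpd and 0.89 for Cebpb, the latter with a limma adjusted p of 0.354. The direction of the 2 C/EBP genes in OHT thus rested on that library.

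OHT replicate 3 was at least 10-fold below the lowest of the other 5 sorted libraries in 142 of the 11532 genes averaging 100 or more, or 1.23%. Among the 9 members tested, all but Lif, the count was 2, Cebpd and Cebpb. Among 43 tested genes of the wider pathway it was 3: Junb, Socs1 and Ctf1. Junb, an immediate early gene of the AP-1 family, was at 4741 in OHT replicate 3 and at 47946 to 64085 in the other libraries. Socs1, an inhibitor of the same family as Socs3, was at 4.81 there and at 66.3 or more elsewhere. Ctf1, which encodes cardiotrophin-1, had 0 reads there and 85.7 normalised counts or more elsewhere.

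Cebpd and Cebpb each have a single exon, and the Cebpb transcript, at 67.2% G and C, is richer in G and C than 99.9% of the genes tested. The Cebpd transcript, at 51.6% G and C, is richer than 56.95% of them. Of the 142 genes, 136 had a transcript in the GENCODE M21 annotation, with a median G and C content of 54.7% and with 14, or 10.3%, of a single exon. Over all 11218 genes of that level with a transcript, the median was 50.0% and 1.98% had a single exon. The 1122 genes richest in G and C had a median deviation from their own mean of -0.43 on the log2 scale in OHT replicate 3, against -0.10 to 0.29 in the other libraries. Not every such gene was low: Cebpa, another single-exon C/EBP gene with 62.6% G and C, was at 2832 in OHT replicate 3 and at 2305 to 6851 in the others. The 11 immediate early and dissociation genes summed to 1.06% of reads in OHT replicate 3, between the 0.951% and 1.59% of the other OHT libraries, but they did not share 1 direction there. Of the 11, 6 were lowest in that library, with Dusp1 11.6-fold, Ier2 11.9-fold, Junb 10.1-fold and Jun 7.68-fold below the lowest of the other 5. Atf3 and Zfp36 were highest in that library, at 78777 and 84657 normalised counts, and the remaining 3 lay between the others. Dusp1, Ier2, Jun, Atf3 and Zfp36 are named after their values were seen. The part of library composition in the low C/EBP values was not tested.

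**Figure D2:**
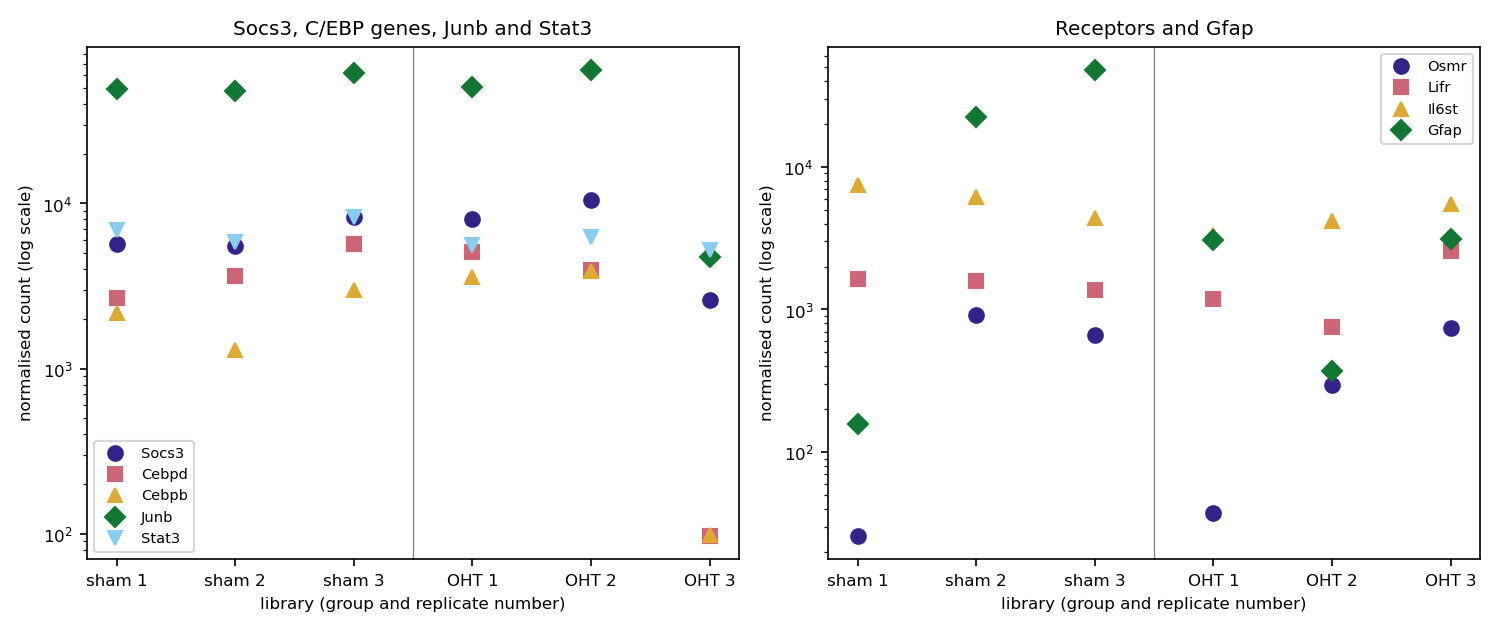
Normalised counts (log axis) in each sorted library; the left panel shows Socs3, Cebpd, Cebpb, Junb and Stat3, the right panel the receptor genes and Gfap. In OHT replicate 3, Cebpd at 97.0 and Cebpb at 97.8 lay far below the other libraries while Stat3 at 5201 stayed close to them, and Osmr was at 25.8 in sham replicate 1 and 37.3 in OHT replicate 1.

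**Figure D3:**
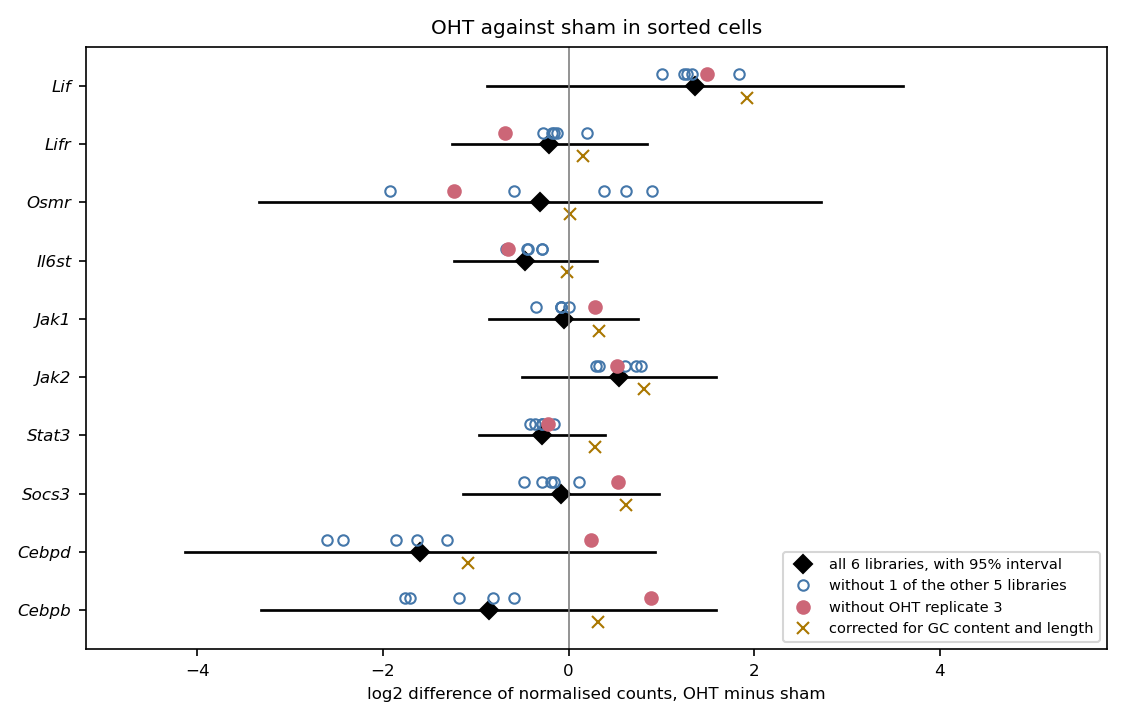
Log2 difference of normalised counts, OHT minus sham, for each member, with its 95% interval from limma; circles show the difference with 1 library left out, filled where it is OHT replicate 3, and crosses show it after correction for transcript length and G and C content. All intervals include 0, and Cebpd and Cebpb change sign without OHT replicate 3.

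The order of the members by mean level per transcript length was nearly the same in both sorted groups, though not in OHT replicate 3 alone. In sham, Socs3 was highest, at 62.8 ± 11.8 ppm per kilobase of transcript (SD, n = 3). Jak1 followed at 41.9 ± 4.14, Cebpb at 35.0 ± 12.4, Stat3 at 28.7 ± 3.98, Cebpd at 26.1 ± 8.76 and Il6st at 17.4 ± 5.17. Neighbours in this run from Jak1 to Il6st did not differ by more than their SDs, whereas Socs3 stood apart above them. Lifr at 3.94 ± 0.509, Jak2 at 3.36 ± 0.860 and Osmr at 2.38 ± 2.08 formed a lower set with overlapping SDs, and Lif was lowest at 0.225 ± 0.132. In the OHT means the order differed in that Jak2, at 4.10 ± 1.05, came before Lifr, at 3.57 ± 3.04, a difference within the SDs. The OHT means of Cebpb, 32.2 ± 28.6, and Cebpd, 15.1 ± 12.6, do not describe OHT replicate 3. There Cebpb at 1.72 and Cebpd at 0.685 lay below Lifr at 7.08, Jak2 at 5.22 and Osmr at 3.56. Jak1, at 27.04, was level with Socs3, at 26.90, in that library. Message for the inhibitor Socs3 thus exceeded that for the receptor chain it acts on in both groups, at 56.0 ± 33.8 against 11.2 ± 5.53 for Il6st in OHT.

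The wider pathway was followed through 51 further genes, of which 48 passed the filter. By limma 0 of 48 passed the adjusted threshold, and 5, or 10.4%, had an unadjusted p under 0.05, beside 11.7% of all genes. The fitted difference was above 0 in 24 and below 0 in 24, with a median of 0.02. The groups did not overlap in 4 genes that were higher in OHT, or 8.33%, and 6 that were lower, or 12.5%. These shares lay near the 9.26% and 9.18% of all genes.

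Of the ligands, Osm, the gene of oncostatin M, stood at 3159, 2016 and 3305 in sham and 5013, 4032 and 3690 in OHT, with a log2 difference of 0.61 (SE 0.35, limma adjusted p = 0.502). Ebi3, a subunit shared by interleukins 27 and 35, also lay higher in each OHT library, by a log2 difference of 0.75 (limma adjusted p = 0.477). Clcf1, a ligand of the CNTF receptor, and Ctf1 lay lower in each OHT library. The fitted log2 difference was -1.72 for Clcf1 (limma adjusted p = 0.438) and -3.26 for Ctf1 (limma adjusted p = 0.462), where the latter depends on the pseudocount because 1 library had 0 reads. Over the 8 ligands tested the median difference was 0.68, with 6 above 0. Among these, Cntf (3.07) was at 113 in OHT replicate 1 and at 10.4 or less in the other libraries.

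All 4 further receptor genes tested had a fitted difference below 0, with a median of -1.67, and none passed the adjusted threshold. Il31ra, at 0, 24.9 and 45.0 in sham and at 0 in every OHT library, passed the filter on low values through sham alone. Its fitted -3.41, which enters the median, was thus bound to be below 0. Il27ra, which did not pass the filter, averaged 3.83 in sham and 9.71 in OHT. Cntfr, the binding chain for CNTF, was at 361, 1108 and 523 in sham and at 64.9, 187 and 51.3 in OHT. Every OHT value lay below every sham value, and the log2 difference was -2.78 (SE 0.78, unadjusted p = 0.00424, limma adjusted p = 0.332). That equals the smallest adjusted p of all genes but does not single out Cntfr. Pim1, described below, had the same limma adjusted p at an unadjusted p of 0.00768. Il6ra, the binding chain for interleukin-6, and Il11ra1, that for interleukin-11, were the most abundant of the receptors, with log2 differences of -0.55 and -0.51 and overlapping groups. Müller glia markers summed to less in 2 of the OHT libraries than in any sham library. In OHT replicate 3, where Cntfr was lowest, they summed to 0.415%, above the 0.368% and 0.389% of sham replicates 1 and 3. Like Cntfr, 2 other marker lists were lower in every OHT library than in any sham library. Endothelial markers summed to at least 0.0235% in sham and at most 0.0207% in OHT. For mural and fibroblast markers these bounds were 0.0127% and 0.00495%. The sums of microglia and macrophage, rod, astrocyte and ganglion cell markers overlapped between the groups. The part of cell composition in the Cntfr difference was not tested.

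The 8 kinase and STAT genes of the wider list had a median difference of 0.02 and included no gene whose groups did not overlap. Stat6, which acts in interleukin-4 signalling, had a log2 difference of -0.15. Of 12 inhibitors, 1 lay higher in every OHT library, Socs6 (log2 difference 0.54, limma adjusted p = 0.565), and 3 lay lower, Socs4 (-1.16), Socs7 (-0.79) and Pias3 (-1.69). Pias3, which encodes an inhibitor of STAT3, had an unadjusted p of 0.0285 and a limma adjusted p of 0.385. Ptpn6, a phosphatase of blood-lineage cells, and Pias1 were the most abundant inhibitors, with log2 differences of 0.46 and 0.51 and overlapping groups.

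Of 16 genes listed as STAT3 targets, Nfil3 was the only one whose groups did not overlap, at a log2 difference of 0.98 (unadjusted p = 0.0463, limma adjusted p = 0.422). Pim1, a kinase gene induced by STAT proteins, stood at 928, 717 and 2200 in sham and 5027, 2128 and 3842 in OHT. Its log2 difference was 1.60 (SE 0.50, unadjusted p = 0.00768, limma adjusted p = 0.332), with OHT replicate 2 just below sham replicate 3. Mcl1, an anti-apoptotic gene, had a log2 difference of 0.79 (unadjusted p = 0.0428, limma adjusted p = 0.417). Pim1 and Mcl1 are named after their values were seen, as the other genes with an unadjusted p under 0.05. The most abundant targets were Junb, described above, and Gfap, at a log2 difference of -1.85 with an SE of 1.68. Over the 16 targets the median was 0.78, with 10 above 0 and 6 below. Those above 0 include Serpina3n (3.13), Timp1 (2.29) and A2m (1.06), named after their values were seen. Each was at 0 in sham replicate 1, so its fitted difference depends on the pseudocount. Their mean normalised counts were lower in OHT, at 1710 against 3350, 52.9 against 75.6 and 361 against 993 in sham. The median and the split therefore give no direction for the targets.

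In the cultures, the mean levels of Socs3, Cebpd and Cebpb were at least 10-fold below both means of sorted cells, Lifr and Jak1 were lower by less, and Osmr and Lif were higher. Their table was normalized separately, so levels were compared in ppm, without a test. Of the 10 members, 5 were lower in every culture than in any sorted library, beside 18.2% of the 14004 genes above the filter in the sorted table and present in both tables, and 2 were higher in every culture, beside 33.4% of them. Serum, passaging, cell makeup and the tables' processing all differ between cultures and sorted cells, and so may age, which is not given for the sorted animals. These cannot be told apart.

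Cebpb was at 0.247 ± 0.0449 ppm in the cultures (SD, n = 3) against 52.6 ± 18.7 in sham and 48.5 ± 43.1 in OHT, a level 213-fold and 196-fold lower. Its culture values came from normalised counts of 21.1, 15.5 and 22.2, that is from 17, 15 and 22 reads, and the gap to OHT was 116-fold without OHT replicate 2. Cebpd was at 1.57 ± 0.287 ppm against 98.0 ± 32.8 and 56.5 ± 47.1, or 62.4-fold and 36.0-fold lower. The low Cebpb and Cebpd values of OHT replicate 3, 2.59 and 2.57 ppm, lay above all cultures, by 10.5-fold over the culture mean for Cebpb but by 1.64-fold for Cebpd.

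Socs3 was at 10.1 ± 3.49 ppm in the cultures, from normalised counts of 504, 920 and 966, against 160 ± 30.1 in sham and 143 ± 86.2 in OHT. The culture level was 15.8-fold and 14.1-fold lower, the latter 9.46-fold without OHT replicate 2. Socs3, Cebpd and Cebpb were the 3 members at least 10-fold below both sorted means, a fall that 10.1% of all genes showed. Lifr was at 5.44 ± 1.66 ppm against 38.1 ± 4.92 and 34.5 ± 29.3, or 6.99-fold and 6.34-fold lower, the latter 3.22-fold without OHT replicate 3. Jak1 was at 108 ± 22.0 ppm against 205 ± 20.3 and 168 ± 30.8, a smaller gap of 1.89-fold and 1.55-fold.

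The 2 genes higher in every culture were Osmr and Lif. Osmr was at 83.4 ± 10.1 ppm in the cultures against 13.1 ± 11.4 in sham and 8.95 ± 9.68 in OHT, or 6.38-fold and 9.32-fold higher. These ratios rested on single libraries: the first was 10.3-fold without sham replicate 2, and the second 22.8-fold without OHT replicate 3. Its normalised counts of 7783, 5842 and 6281 spread 1.33-fold, in contrast to the 35.2-fold and 19.8-fold spreads in sorted cells. Lif was at 5.86 ± 0.524 ppm, from 518, 413 and 464 normalised counts, against 0.904 ± 0.531 in sham and 1.81 ± 0.304 in OHT. Per transcript length, Osmr exceeded Lifr in the cultures, at 15.2 ± 1.84 against 0.564 ± 0.172 ppm per kilobase. In sham their order was not settled, since the SDs overlapped and sham replicate 2 had 4.21 for Osmr and 4.16 for Lifr.

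Stat3, Il6st and Jak2 in the cultures overlapped with the sorted libraries. Stat3 was at 215 ± 72.5 ppm, Il6st at 162 ± 48.9 and Jak2 at 15.6 ± 1.28. Stat3 was the highest member in the cultures per transcript length, at 35.6 ± 12 ppm per kilobase. Jak1 at 22.1 ± 4.49, Il6st at 18.7 ± 5.64 and Osmr at 15.2 ± 1.84 came next, each within the SDs of its neighbour. Socs3 at 3.96 ± 1.37 and Jak2 at 3.11 ± 0.255 were lower and overlapped, followed by Lif at 1.45 ± 0.130, Lifr at 0.564 ± 0.172 and Cebpd at 0.419 ± 0.0766, and Cebpb was last at 0.164 ± 0.0299. Socs3 message thus lay above that of Stat3 in the sham mean and below it in the culture mean.

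Of the 48 wider pathway genes, 10, or 20.8%, were higher in every culture than in any sorted library, 14, or 29.2%, were lower, and 11 were at least 10-fold below both sorted means. Over all 14004 genes the shares were 33.4% higher, 18.2% lower and 10.1% at least 10-fold below. The genes named here were chosen after their values were seen. Ligands differed in both directions: Osm was at 0.0990 ppm and Ebi3 at 0.0439 ppm in the cultures, against 69.9 and 30.3 ppm in sham. Clcf1 was at 20.1 ppm in the cultures, with a highest sorted value of 8.94 ppm. Il11, which did not pass the filter in the sorted table, was at 140 ppm in the cultures and at 0.540 ppm or less in each sorted library.

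Il6ra was at 1.33 ppm in the cultures against 165 ppm in sham, while Il11ra1 was similar, at 75.1 and 83.8 ppm. Of 12 inhibitors, 5 were higher in every culture, among them Cish, a SOCS family member, at 11.8 ppm against at most 2.63 ppm in sorted cells. Ptpn6 was at 2.12 ppm against 376 ppm in sham, and Socs1 at 0.0684 against 7.37 ppm. Of the targets, Cebpa was at 0.0883 ppm against 63.3 ppm in sham, and Timp1, an inhibitor of matrix proteases, was at 913 ppm in the cultures against at most 5.33 ppm.

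These differences ran with large differences in marker genes. The 12 microglia and macrophage markers summed to 0.00981% to 0.0155% of reads in the cultures, against at least 2.43% in each sorted library, and none was at 0. The 10 Müller glia markers summed to 0.0938% to 0.114% of culture reads, also with none at 0. Most of that sum was Prdx6, at 712, 650 and 747 ppm in culture replicates 1, 2 and 3, within its range in sorted cells. The other markers of the list were each lower in every culture than in any sorted library. Rlbp1 was at 2.84 ppm or less in the cultures and at 389 ppm or more in sorted cells. The 10 mural and fibroblast markers summed to 0.454% to 0.701% in the cultures and to at most 0.0255% in sorted cells. Most of the culture sum was Col1a1, at 4121 ppm or more in each culture. Rgs5 and Kcnj8 were lower in every culture than in any sorted library, Abcc9 overlapped, and the other markers of this list were higher. The 11 immediate early and dissociation genes summed to 0.0623% to 0.0787% in the cultures and to at least 0.951% in sorted cells. The part of microglial RNA, of dissociation or of fibroblast-type cells in the Socs3, Cebpb, Cebpd and Osm levels was not tested.

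**Figure D4:**
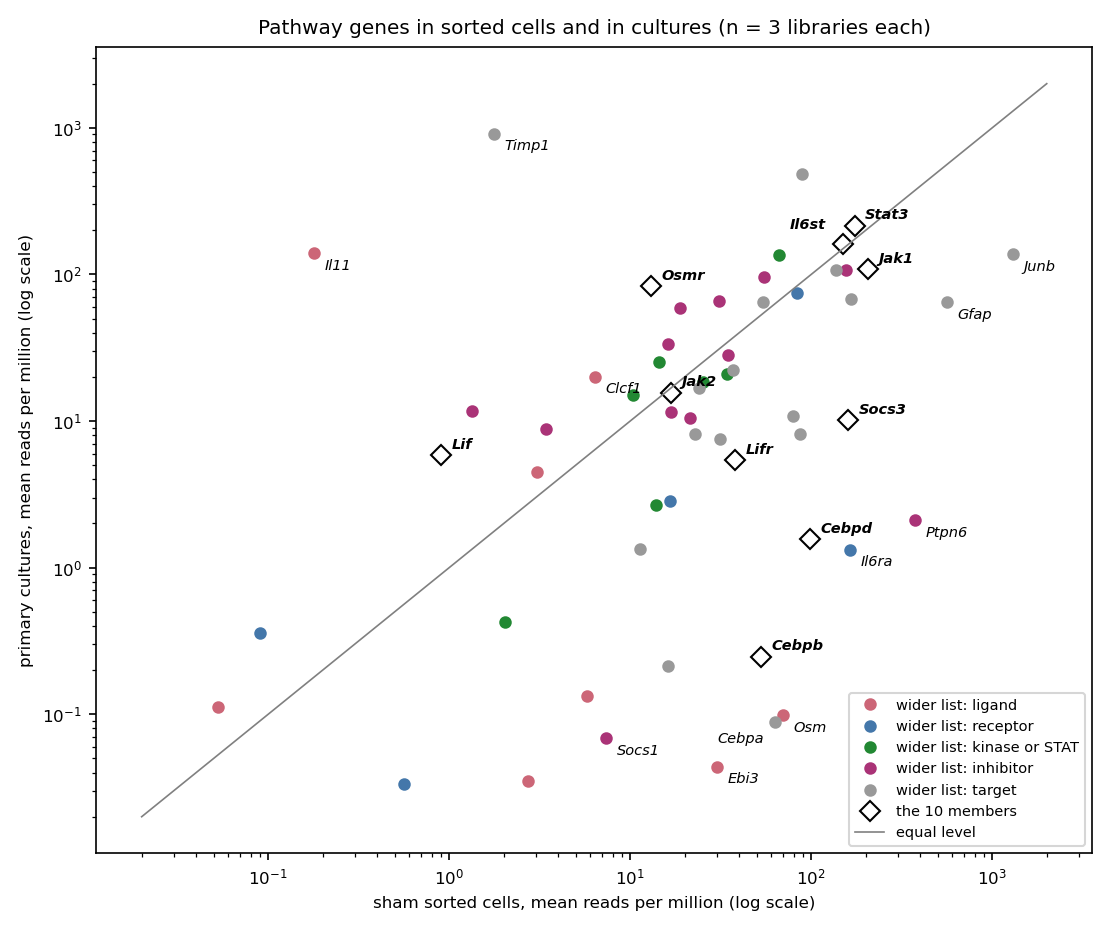
Mean ppm in the 3 sham libraries (horizontal, log axis) and in the 3 primary cultures (vertical, log axis) for the 10 members (diamonds) and wider pathway genes (dots, coloured by role); the line marks equal levels. Cebpb, Cebpd and Socs3 lie far below the line, at 0.247, 1.57 and 10.1 ppm in the cultures, and Osmr and Lif above it, at 83.4 and 5.86 ppm.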

How the data were processed

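The members and gene lists were chosen with earlier results of these data known. Per the submitters' processing notes, the tools were bcl2fastq 2.20, Trim Galore 0.6.6, FastQC 0.11.9 and STAR 2.7.1a, and the build was mm39. The sources used here do not name the counting program, its strand setting, the annotation or the normalization method. The deposited signal values are gene counts divided by 1 factor per library. Dividing each column by its smallest step gave whole reads for 100% of values (tolerance 0.05 reads), although in culture replicate 3 that step is too close to 1 to be checked independently. Amplified reads carry no molecular identifiers, so depth limits counting error only. Replicates of each group differed by more than sampling noise (chi-square per gene 54.0 to 853).

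OHT was compared with sham by limma 3.58.1 (R 4.3.3) with a variance trend, on log2(value + 1), for the 14403 genes averaging 10 or more in the sorted table of 6 libraries. Differences on this scale understate changes of low genes. P-values were adjusted over all genes (Benjamini-Hochberg, threshold 0.05). The calculation was tested on simulated data. There limma recovered 16.5% of genes changed by 2 on the log2 scale, 52% of those changed by 3 and 76.5% of those changed by 5. At a change of 2, DESeq2 recovered 48% but 81 of its 177 calls were unchanged genes. edgeR 4.0.16 and DESeq2 1.42.0 on the recovered reads, TMM and quantile scaling, pseudocounts of 0.5 and 10, other filters, a replicate block and leaving out each library were alternatives. The tables were normalized separately, so cultures and sorted cells were compared only as ppm, reads per 1000000 of the library's total. Transcript lengths, G and C content and exon counts are of GENCODE M21 (GRCm38), the principal transcript of each gene, and served no coordinates. Every column belonged to a sample. The text names all members. Of the wider list it names genes past the threshold, genes whose groups did not overlap and the 2 most abundant per role, except for an item that is not reported here. It also names the 5 genes of a mean of at least 100 with the profile closest to Socs3 and to Osmr. Other genes, such as Pim1, Mcl1, Socs1, A2m, Cebpa, Cish, Timp1 and Il11, fall outside this rule and were named after their values were seen.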

Additional observations from a re-analysis of the deposited data

How the results depend on the processing

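No member passed the adjusted threshold in any of 159 combinations of member and alternative (smallest adjusted p 0.354), and the sign of the difference changed in 22 of them. Lif and Jak2 kept their sign in all of theirs, as did Il6st, although its difference shrank from -0.47 to -0.0198 after the correction for GC content and length; Lif gave no value with a filter at a mean of 100. Leaving out 1 library gave log2 differences from -0.48 to 0.53 for Socs3, -1.93 to 0.89 for Osmr, -0.69 to 0.20 for Lifr, -0.36 to 0.28 for Jak1, -2.61 to 0.24 for Cebpd and -1.76 to 0.89 for Cebpb. DESeq2 gave 0.12 for Socs3, 0.0366 for Jak1 and 0.24 for Cebpb, edgeR gave 0.0450 for Socs3 and 0.16 for Cebpb, and quantile normalization gave 0.20 for Osmr. The GC and length correction, chosen after seeing the data, gave 0.29 for Stat3, 0.62 for Socs3, 0.0188 for Osmr, 0.15 for Lifr, 0.33 for Jak1 and 0.31 for Cebpb. Over all genes, the count past the threshold was 0 by limma, 250 by DESeq2 and 0 to 17 with 1 library left out: 12 genes, all lower in OHT, without sham replicate 1, and 17, all higher, without sham replicate 3; the cause was not tested. With the replicate number as a block, 2 genes passed, 1 in each direction. Deviations from the group mean correlated at 0.06, -0.05 and -0.06 between same-numbered libraries of the 2 groups over 11532 genes. The highest such correlation was 0.15, for sham replicate 2 with OHT replicate 3. With 3 libraries per group these correlations cannot settle whether the numbers pair the libraries. Without the 20 highest genes in the total, the culture levels moved by more than 1 SD for Osmr (93.7 ppm), Lif (6.58 ppm) and Jak2 (17.5 ppm). Depth limits Cebpb in the cultures, at 15 to 22 reads per library, and Lif in sham, where the lowest library had 19.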
